A study of Mus musculus with 24 samples.

Results

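The genes described here are 8 genes of Schwann cells and of the myelin they form, Mbp, Pmp22, Mag, Prx, Egr2, Sox10, Cnp and Mal, chosen by name and taken as the rows of the count table whose Entrez identifier carries that symbol. They are 8 of the 24454 genes in the table, and all 8 passed the filter on low counts that left 16317 genes to test. RNA was sequenced from organ of Corti (OC) explants of 5-day-old C57BL/6N pups of both sexes, precultured for 24 h and then treated for 6 or 24 h. CTRL explants received no drug, GM explants received the ototoxic aminoglycoside gentamicin (50 μM), PIO explants received pioglitazone (10 μM), which activates PPAR-γ, and PIO+GM explants received both. Each of the 8 groups held 3 libraries (24 in all), with 6 OCs per condition, and no source says whether the OCs of the 3 libraries came from separate litters or dissections, so p-values measure the spread between these libraries, which may in part be technical.

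In the cochlea, Schwann cells wrap the peripheral axons of the spiral ganglion neurons, and the ends of those axons run into the OC. Schwann cells descend from the neural crest under Sox10, and a later factor, Egr2 (also called Krox20), switches on and maintains the genes of compact myelin in those cells that take up an axon. When contact with the axon is lost, Schwann cells are known to silence Egr2 and the myelin genes and to return to an immature or repair state. An explant has its nerve cut at dissection, and no source says how much of the nerve these explants kept.

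The roles of the 8 genes differ. Mbp encodes myelin basic protein, which holds the cytoplasmic faces of compact myelin together, and Pmp22 encodes a membrane protein of peripheral compact myelin. Mag encodes an adhesion protein on the side of the sheath that faces the axon, and Prx encodes periaxin, a scaffold of the outer Schwann cell membrane. Cnp encodes a cyclic nucleotide phosphodiesterase of the cytoplasm-filled parts of the sheath, and Mal encodes myelin and lymphocyte protein, a small proteolipid that sorts membrane cargo in glia and in epithelia. Egr2 and Sox10 are the transcription factors, and Sox10 is also made in the epithelium of the inner ear and in melanocytes. Counts were made per gene, so the golli transcripts of the Mbp gene, which are made outside myelin too, could not be told apart from those of the myelin protein.

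The windows upstream of 4 of the genes are shown because 3 of them, Mag, Prx and Cnp, moved closely together across libraries although Cnp did not share the change of Mag and Prx with culture time, and the fourth, Egr2, is the regulator of the myelin programme. RefSeq sequences (build GRCm38.p6) were available for 6 of the 8 genes, and each run gives the 250 bases before the most upstream transcript start in the RefSeq promoter table, read 5′ to 3′ on the strand of the gene. For Egr2, Prx and Cnp that start lies downstream of the outermost end of the annotated gene, so the Egr2 window lies within the gene and the Prx and Cnp windows run past that end. Capitals mark matches to the SOX words ACAAAG and ACAATG and to the EGR word GTGGGCG, searched on both strands.
Mag (chr7:30914923-30915172, minus strand): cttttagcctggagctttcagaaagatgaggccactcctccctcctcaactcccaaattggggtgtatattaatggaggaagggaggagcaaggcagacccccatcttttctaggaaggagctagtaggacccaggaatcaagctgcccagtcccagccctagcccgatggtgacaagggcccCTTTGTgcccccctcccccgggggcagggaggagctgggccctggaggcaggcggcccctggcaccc
Prx (chr7:27499074-27499323, plus strand): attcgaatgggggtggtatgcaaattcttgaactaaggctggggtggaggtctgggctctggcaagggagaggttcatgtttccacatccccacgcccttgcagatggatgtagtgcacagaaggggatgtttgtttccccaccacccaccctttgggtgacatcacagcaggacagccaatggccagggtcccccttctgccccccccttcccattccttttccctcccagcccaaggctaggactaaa
Cnp (chr11:100574689-100574938, plus strand): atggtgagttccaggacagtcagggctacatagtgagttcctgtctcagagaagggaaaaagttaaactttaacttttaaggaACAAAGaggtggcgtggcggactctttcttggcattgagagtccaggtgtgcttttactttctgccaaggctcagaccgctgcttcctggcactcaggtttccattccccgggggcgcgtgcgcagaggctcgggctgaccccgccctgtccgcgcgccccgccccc
Egr2 (chr10:67535249-67535498, plus strand): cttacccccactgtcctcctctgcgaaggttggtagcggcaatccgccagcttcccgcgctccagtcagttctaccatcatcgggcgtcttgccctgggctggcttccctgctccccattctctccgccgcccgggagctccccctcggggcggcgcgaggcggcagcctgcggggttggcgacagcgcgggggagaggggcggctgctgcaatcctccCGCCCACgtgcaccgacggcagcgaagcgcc
Mag held 1 match to ACAAAG, on the opposite strand and beginning 67 bases before the start, and Cnp held 1 on its own strand, beginning 167 bases before the start. Egr2 held 1 match to GTGGGCG on the opposite strand, 31 bases before that transcript start. Prx, Pmp22 and Mal held none of the 3 words in their windows. Over all 32851 windows of the same length, 16.5% held ACAAAG, 10.7% held ACAATG and 7.02% held GTGGGCG on either strand, so matches of this kind are frequent and are given as a description only.

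Totals ranged from 7211357 to 15548856 counts per library, and the library with the lowest total was PIO+GM 6 h replicate 3. Values are given as CPM, the counts scaled to a common library size with TMM factors, or, to compare genes, per length as RPKM. Markers of the tissue were present in every library: the summed CPM of 10 supporting cell markers ranged from 2731 to 7234, and that of 10 hair cell markers from 163 to 470. The oligodendrocyte markers Mog, Opalin and Olig2 reached at most 20, 18 and 7 counts in a library and did not pass the filter. Of the 8 oligodendrocyte markers 5 passed the filter. Between 6 and 24 h 3 of them rose (Sox8, Aspa and Myrf) and 1 fell (Mobp). Beside them, 62.6% of all genes were called in either direction, and 5212 of 16317 were higher. After removal of the trend of each library on GC content, 2 of the markers rose. The summed CPM of the list was 13.4 to 35.6 at 6 h and 49.5 to 80.9 at 24 h. Central glia share Mbp, Mag, Cnp, Mal and Sox10 with Schwann cells, so their part in these levels was not tested.

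Per length, Pmp22 was the highest of the 8 genes at 6 h, with a median RPKM of 118 (36.7 to 220), followed by Sox10 (47.9), Mbp (36.4), Mal (29.5), Cnp (25.2), Prx (15.8), Mag (5.86) and Egr2 (5.78). At 24 h the order was Sox10, with a median RPKM of 51.9 (44.3 to 61.3), Pmp22 (32.5), Cnp (22.9), Mal (16.3), Mbp (13.9), Prx (5.51), Egr2 (2.27) and Mag (0.926). Neighbours overlapped in range at both times, but at 24 h each gene exceeded the next in 12 of 12 libraries, other than Mal over Mbp (8 of 12). At 6 h that held only of Cnp over Prx and Prx over Mag, and Mag lay above Egr2 in 6 of 12 libraries.

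**Figure D1:**
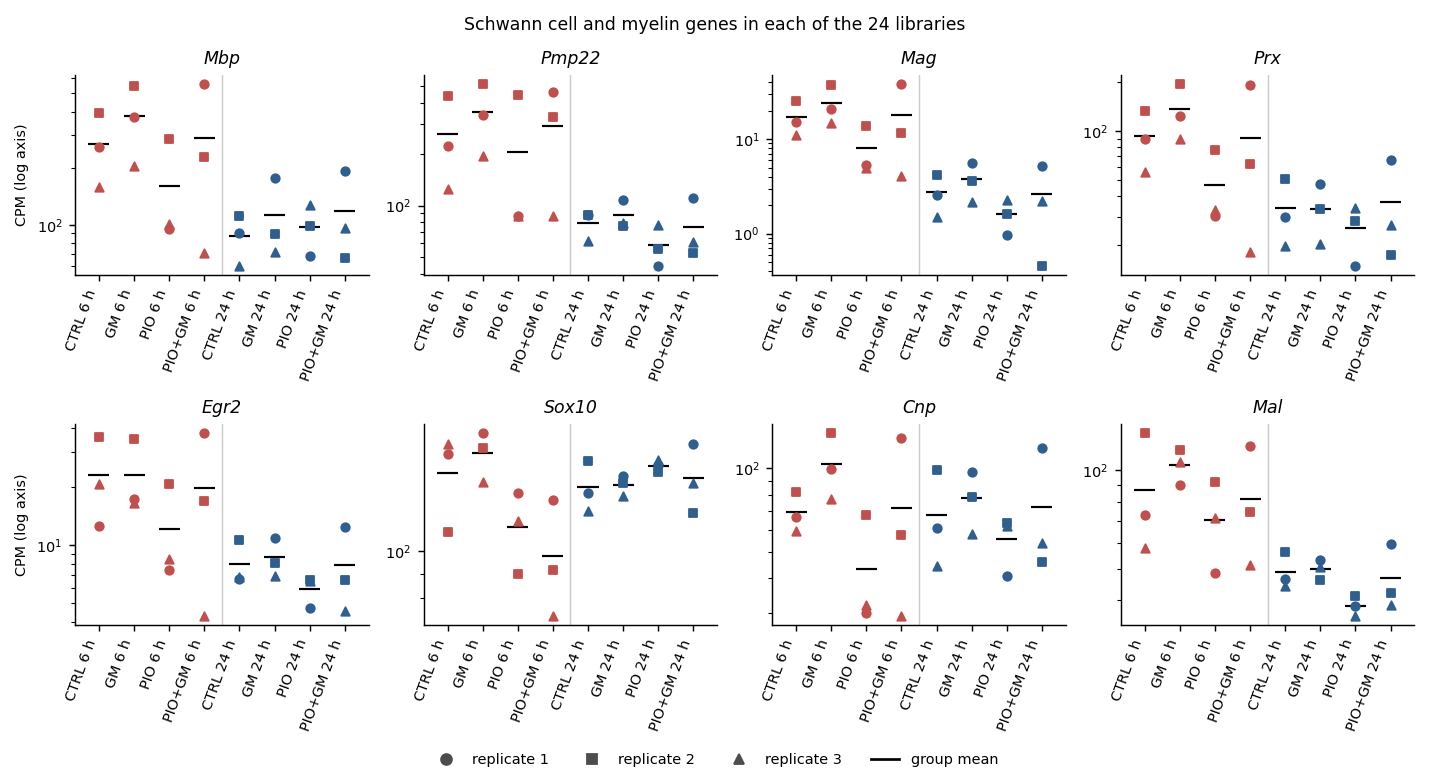
CPM (log axis) of each of the 8 genes in the 24 libraries, by group, with the replicate number as the marker, 6 h in red, 24 h in blue and the group mean as a bar. Mag, Pmp22, Prx, Mbp, Egr2 and Mal fell by the test between 6 and 24 h when averaged over treatments, Cnp and Sox10 did not pass, and Sox10 stays between 73.6 and 175 CPM throughout.

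The first comparison asks how the 8 genes differed between the longer and the shorter culture. Of the 8 genes, 6 fell between 6 and 24 h of treatment, Mag 6.05-fold, Pmp22 3.66-fold, Prx 2.66-fold, Mbp 2.53-fold, Egr2 2.49-fold and Mal 1.85-fold when averaged over the 4 treatments. Cnp and Sox10 did not pass the test, with log2 fold changes of -0.02 ± 0.22 (SE, n = 12 against 12 libraries, adjusted p = 0.95) and 0.16 ± 0.09 (adjusted p = 0.15) by edgeR's quasi-likelihood test. In a tissue made of many cell types, fewer cells of a type and less RNA per cell cannot be told apart, and this holds for every difference below. Of all genes tested, 30.7% passed the test with lower values at 24 h and 62.6% passed in either direction, against 6 of 8 lower here. The median log2 fold change of the 8 genes was -1.33, and that of all genes tested was 0.0167.

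Mag was the gene that differed most. In CTRL its CPM was 15.0, 25.4 and 11.2 at 6 h and 2.55, 4.16 and 1.48 at 24 h, in GM 21.0, 37.2 and 14.7 and then 5.62, 3.58 and 2.14. In PIO it was 5.35, 13.8 and 4.92 at 6 h and 0.964, 1.63 and 2.29 at 24 h, and in PIO+GM 38.6, 11.6 and 4.05 and then 5.16, 0.455 and 2.21. The 2 times did not overlap within CTRL, GM or PIO, but in PIO+GM the highest library at 24 h lay above the lowest at 6 h. Of all genes tested, 22.3% in CTRL, 22.2% in GM and 20.7% in PIO lay lower at 24 h with no overlap, against 6, 6 and 4 of the 8 genes. The log2 fold change averaged over treatments was -2.60 ± 0.37 (adjusted p = 6.4e-06), and within single treatments it was -2.63 ± 0.74 in CTRL (adjusted p = 0.012), -2.69 ± 0.73 in GM (0.011), -2.29 ± 0.77 in PIO (0.032) and -2.78 ± 0.74 in PIO+GM (0.0074). Without PIO+GM 6 h replicate 1 the Mag value in PIO+GM was -1.58 (adjusted p = 0.084). The call was also lost without replicate 2 at 6 h of the treatment by edgeR's quasi-likelihood test. The values were then -2.24 in CTRL (adjusted p = 0.06), -2.24 in GM (0.06) and -1.66 in PIO (0.17). The lowest value, 0.455 CPM, rests on 6 counts.

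Pmp22 showed the same order of times. Its CPM was 223, 439 and 125 in CTRL at 6 h and 87.6, 88.1 and 62.0 at 24 h. In GM it was 341, 518 and 194 and then 108, 76.4 and 78.5, and in PIO 86.9, 441 and 86.6 and then 44.3, 55.9 and 76.5. PIO 6 h replicate 2 thus held about the level of the high CTRL library, while the other 2 PIO libraries lay close to the 24 h range. In PIO+GM it was 461, 330 and 86.3 at 6 h and 111, 52.4 and 61.1 at 24 h, with 1 overlapping pair of libraries. Pmp22 fell in each treatment, with log2 fold changes of -1.73 ± 0.62 in CTRL (adjusted p = 0.043), -2.0 ± 0.62 in GM (0.024), -1.80 ± 0.62 in PIO (0.036) and -1.97 ± 0.62 in PIO+GM (0.02), and of -1.87 ± 0.31 on average (3.3e-05). Without PIO 6 h replicate 2 the Pmp22 value in PIO was -0.56 (adjusted p = 0.52), with only the groups compared it was -1.83 (0.11), and without CTRL 6 h replicate 2 the value in CTRL was -1.13 (0.25).

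Mal fell by less but with less spread. Its CPM was 73.1, 129 and 57.6 in CTRL at 6 h and 46.4, 56.0 and 44.3 at 24 h, and 89.8, 115 and 106 in GM at 6 h and 53.0, 46.2 and 50.6 at 24 h. In PIO it was 48.5, 91.6 and 71.6 and then 38.6, 41.3 and 35.9, and in PIO+GM 119, 74.2 and 51.3 and then 59.4, 42.2 and 38.7. The log2 fold changes were -0.82 ± 0.29 in CTRL (adjusted p = 0.038), -1.05 ± 0.29 in GM (0.012), -0.87 ± 0.29 in PIO (0.03), -0.80 ± 0.29 in PIO+GM (0.037) and -0.89 ± 0.14 on average (2.6e-05). With only the groups compared, Mal in CTRL did not pass (-0.85, adjusted p = 0.069). The Mal value was -0.42 in CTRL without replicate 2 at 6 h (adjusted p = 0.33) and -0.42 in PIO+GM without replicate 1 at 6 h (0.26). Mal (Entrez 17153) is not the Toll-like receptor adapter whose protein also goes by the name MAL: that adapter is the gene Tirap, which ranged from 13.5 to 24.5 CPM and differed by -0.25 ± 0.09 on the log2 scale between the times (adjusted p = 0.015).

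Mbp and Prx passed the test in GM and on average. Mbp CPM in GM was 376, 549 and 206 at 6 h and 177, 89.7 and 71.5 at 24 h, with a log2 fold change of -1.74 ± 0.61 (adjusted p = 0.044). That call was lost in 10 of the 24 fits without 1 library (-1.36 to -1.74, adjusted p from 0.051 to 0.18), 6 of which left out a library of another treatment, and with no filter on low counts (0.053). Prx CPM in GM was 123, 195 and 89.5 at 6 h and 47.2, 33.3 and 20.3 at 24 h, with a log2 fold change of -2.02 ± 0.66 (adjusted p = 0.031). The averages over treatments were -1.34 ± 0.30 (adjusted p = 0.00079) for Mbp and -1.41 ± 0.32 (0.00091) for Prx. In CTRL the ranges of Mbp and of Prx did not overlap between the times either, but the adjusted p-values by edgeR's quasi-likelihood test were 0.054 and 0.10, and in PIO and PIO+GM neither gene passed. DESeq2, the likelihood ratio test and the fit of only the groups compared called Mbp in CTRL, and the last of these called Prx there too.

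Egr2 had a median of 17.1 CPM at 6 h (4.32 to 37.6) and of 6.74 CPM at 24 h (4.58 to 12.4). It fell on average over treatments (-1.32 ± 0.28, adjusted p = 0.0005), with log2 fold changes of -1.51 ± 0.57 in CTRL (0.052), -1.41 ± 0.56 in GM (0.074), -1.02 ± 0.57 in PIO (0.19) and -1.33 ± 0.57 in PIO+GM (0.074) that did not pass singly by edgeR's quasi-likelihood test. DESeq2, the likelihood ratio test and the fit of only the groups compared called Egr2 in CTRL and in GM. Egr2 is also an immediate early gene in other settings, and 7 of 10 genes on a list of immediate early genes fell in the same comparison, beside 30.7% of all genes, among them Fos (-0.84 ± 0.22), Egr1 (-0.81 ± 0.20) and Egr3 (-0.95 ± 0.28). The part of that list in the difference of Egr2 was not tested.

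Cnp and Sox10 stood apart from the other 6. Cnp CPM in CTRL was 67.0, 82.2 and 59.2 at 6 h and 60.8, 99.1 and 44.2 at 24 h, and in no treatment did the times differ by the test. Sox10 CPM in CTRL was 159, 110 and 167 at 6 h and 132, 154 and 121 at 24 h, and in GM 175, 164 and 139 and then 143, 139 and 130. In PIO+GM Sox10 was 128, 91.5 and 73.6 CPM at 6 h and 166, 120 and 138 CPM at 24 h, and there it rose, by 0.53 ± 0.19 (adjusted p = 0.035), beside 17.6% of all genes that were called higher in that comparison. In PIO the times did not overlap for Sox10, as 20.5% of all genes lay higher at 24 h there with no overlap, but it did not pass (0.42 ± 0.19, adjusted p = 0.10). The call in PIO+GM was lost when the trend of each library on GC content was removed (0.04, adjusted p = 0.88), when only the 2 groups compared were fitted (0.52, 0.11), and without each of 4 of the 6 libraries of the comparison (0.37 to 0.56, adjusted p from 0.061 to 0.16).

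Counted within treatments, 3 genes were lower by the test in CTRL (Pmp22, Mag and Mal), 5 in GM (these and Mbp and Prx), 3 in PIO and 3 in PIO+GM (Pmp22, Mag and Mal in both). The share of all genes tested that were called lower was 13.2% in CTRL, 11.7% in GM, 15.8% in PIO and 17% in PIO+GM. Whether the effect of time differed between treatments was tested as the change of each drug effect with time, in 3 of 5 interactions, and the other 2 compared the pioglitazone effect with and without gentamicin at each time. No gene of the whole table passed in any of the 5 by edgeR's quasi-likelihood test (0% called). At an unadjusted p under 0.05 the count of the 8 genes was 1 in the change of PIO+GM vs GM with time (Sox10, 0.75 ± 0.27, adjusted p = 0.84) and 0 in the others. The counts within single treatments rested on few libraries. In CTRL the count was 0 without replicate 2 at 6 h or replicate 3 at 24 h, 1 (Mag) without replicate 1 or 2 at 24 h, and 5 without PIO+GM 6 h replicate 1 or 3 or PIO 6 h replicate 2. In GM it was 0 without replicate 2 at 6 h, 3 without replicate 1 at 6 h, 2 without replicate 2 at 24 h and 1 (Mal) without replicate 3 at 24 h. In PIO it was 0 without replicate 2 at 6 h or replicate 1 or 2 at 24 h and 1 (Mag) without replicate 3 at 24 h. In PIO+GM, with Sox10 counted, 4 genes became 1 (Sox10) without replicate 1 at 6 h, 1 (Mag) without replicate 2 at 6 h or replicate 3 at 24 h, and 2 (Mag and Sox10) without replicate 2 at 24 h. The 6 genes that fell on average over treatments were called in all 24 fits that left out 1 library.

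**Figure D2:**
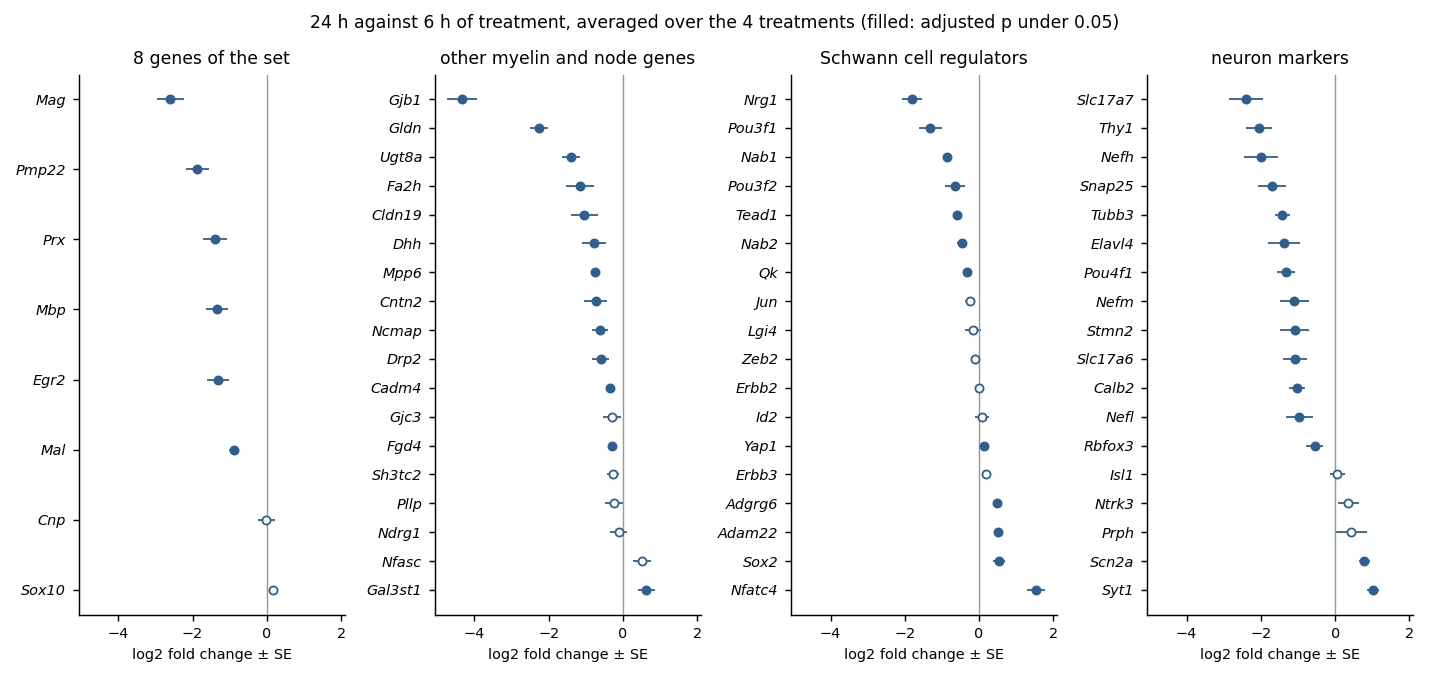
Log2 fold change ± SE at 24 h against 6 h, averaged over the 4 treatments (12 against 12 libraries), for the 8 genes and for 3 other lists, with filled points for an adjusted p under 0.05. Among the 8 genes Mag (-2.60) lies lowest and Sox10 (0.16) highest, and Gjb1 (-4.33) lies lowest of the other myelin genes.

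The wider lists were written with earlier results of these data known. Of 18 other genes of the myelin sheath and the node, 12 fell and 1 rose between 6 and 24 h, and the 66.7% that fell stand beside 30.7% of all genes. Without PIO+GM 6 h replicate 1, 8 fell and 2 rose. Gjb1, the gap junction protein of Schwann cell myelin, fell most (-4.33 ± 0.41, adjusted p = 3.4e-08), from 1.35 to 32.5 CPM at 6 h to 0.0643 to 0.993 CPM at 24 h, with no overlap, but its 24 h values rest on 1 to 15 counts a library, so the size of the fold is uncertain. Gldn, a Schwann cell protein that gathers sodium channels at the node, fell by 2.26 on the log2 scale (SE 0.25, adjusted p = 2.1e-07), and Ugt8a, which makes the galactolipids of myelin, by 1.40 (SE 0.25, 7.3e-05). Cldn19 (-1.04), Fa2h (-1.16) and Dhh (-0.78) also fell. Like Cnp, the connexin gene Gjc3 (-0.30 ± 0.25, adjusted p = 0.31) did not pass, and Gal3st1, which sulphates myelin galactolipids, rose (0.63 ± 0.22, 0.017), a call that was lost after removal of the GC trend (0 of the 18 genes higher).

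Among 18 regulators of Schwann cells, 7 fell and 5 rose, 66.7% in either direction, which is near the 62.6% of all genes. Pou3f1, a factor of promyelinating Schwann cells (-1.31 ± 0.32, adjusted p = 0.0014), Nrg1, a signal that drives myelination (-1.81 ± 0.27, 1.2e-05), and the Egr2 cofactors Nab1 (-0.87 ± 0.07, 7.2e-09) and Nab2 (-0.47 ± 0.13, 0.0043) fell. Sox2, which holds Schwann cells immature but is also a gene of cochlear supporting cells (0.54 ± 0.17, 0.0081), and Adgrg6, a receptor needed to start myelination (0.49 ± 0.10, 0.00045), rose. The neuregulin receptor gene Erbb3, a lineage gene like Sox10, gave 0.19 ± 0.11 (0.16).

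Genes of immature, non-myelinating and repair Schwann cells moved both ways, with 5 lower, 3 higher and 5 that did not pass of 13 tested, and the 61.5% called was again near the 62.6% of all genes. S100b rose most (2.27 ± 0.25, adjusted p = 2.9e-07), from 58.8 to 168 CPM at 6 h to 199 to 729 CPM at 24 h, and it is a gene of cochlear supporting cells as well as of Schwann cells. Cdh19, a cadherin of Schwann cell precursors, rose by 0.65 ± 0.26 (0.034) and Fabp7 by 0.52 ± 0.18 (0.019). Gap43, a growth protein of axons and of repair Schwann cells (-0.95 ± 0.12, 8.5e-07), and Gdnf (-1.20 ± 0.19, 2.3e-05) fell, and the repair gene Ngfr gave -0.03 ± 0.27 (0.92).

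Neuron markers moved with the myelin genes: 13 of 18 fell between 6 and 24 h and 2 rose, with a median log2 fold change of -1.09, beside 30.7% of all genes that were called lower and 62.6% called in either direction. Nefh (-1.99 ± 0.46, adjusted p = 0.00098), Snap25 (-1.70 ± 0.39, 0.00079) and Tubb3 (-1.42 ± 0.21, 1e-05) were among those that fell, and Syt1 (1.03 ± 0.16, 1.3e-05) and Scn2a (0.78 ± 0.15, 0.00016) rose. The summed CPM of the 18 markers ranged from 265 to 833 at 6 h and from 382 to 660 at 24 h, and none was at 0 in any library. Their part in the difference of the myelin genes was not tested. Of the melanocyte markers, which share Sox10, 1 of 6 tested passed the test (Oca2, higher), and of the 10 supporting cell markers 4 rose and none fell, shares of 16.7% and 40% that lie below the 62.6% of all genes.

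The ratio of the counts of 2 of the genes within a library was taken for 4 pairs, chosen after the values were seen and given with no test. Each pair sets a gene that fell against one that did not, so a lower ratio at 24 h restates the differences above. The ratio of Mag to Cnp counts was 0.202 in the median at 6 h (0.138 to 0.309) and 0.0391 at 24 h (0.0099 to 0.0579), with no overlap between the 12 libraries of each time. The ratio of Mbp to Cnp counts was 3.82 at 6 h (2.41 to 4.78) and 1.52 at 24 h (1.12 to 2.05), again with no overlap. The ratio of Mag to Sox10 ran from 0.0405 to 0.302 at 6 h and from 0.00379 to 0.0394 at 24 h and did not overlap. The ratio of Pmp22 to Sox10 overlapped, with 0.657 to 4.91 at 6 h and 0.294 to 0.759 at 24 h.

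**Figure D3:**
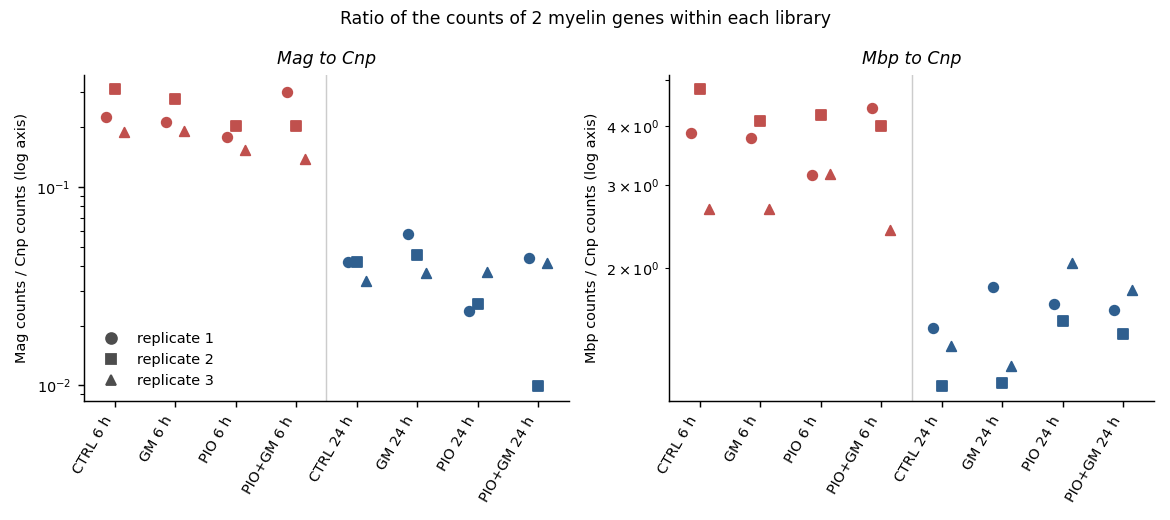
Ratio of Mag to Cnp counts and of Mbp to Cnp counts (log axis) in each library, by group, with the replicate number as the marker, 6 h in red and 24 h in blue. Every 6 h library lies above every 24 h library in both ratios, with medians of 0.202 against 0.0391 and of 3.82 against 1.52.

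The GM and PIO comparisons with CTRL share the CTRL libraries. The comparison of pioglitazone with its absence at 6 h gave lower values of all 8 genes, with and without gentamicin, but mostly within the spread between libraries. The median log2 fold change of the 8 genes was -0.72 for PIO vs CTRL, -0.40 for PIO+GM vs GM and -0.57 for the average of both, which is made of the same libraries (6 against 6), while the medians of all genes lay between -0.0241 and 0.0025. Sox10 was the 1 gene called, in the average (-0.54 ± 0.13, adjusted p = 0.013), beside 6.83% of all genes called lower there and 16.1% called in either direction. No gene was called in PIO vs CTRL (0.337% of all genes in either direction) or in PIO+GM vs GM (1.32%). At an unadjusted p under 0.05 the count was 0 in the former, also by DESeq2, and 1 in the latter (Sox10), which DESeq2 and edgeR's likelihood ratio test called. So did edgeR's quasi-likelihood test with the replicate number as a block (-0.73, adjusted p = 0.016).

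Sox10 CPM at 6 h was 159, 110 and 167 in CTRL, 132, 89.8 and 116 in PIO, 175, 164 and 139 in GM and 128, 91.5 and 73.6 in PIO+GM. PIO and CTRL overlapped, and PIO+GM lay below GM in all libraries, as 11.4% of all genes did. The log2 fold changes were -0.37 ± 0.19 for PIO vs CTRL (adjusted p = 0.36) and -0.70 ± 0.19 for PIO+GM vs GM (0.063), and the difference between them was -0.34 ± 0.27 and did not pass (1). At 24 h, Sox10 was 132, 154 and 121 CPM in CTRL and 151, 146 and 154 CPM in PIO, and the averaged effect was 0.10 ± 0.13 (0.78). Sox10 transcripts have a GC content of 61.8%, against a median of 49.8% over tested genes, and log2 fold changes at 6 h moved with GC content over all genes, with a Spearman correlation of -0.386 for PIO vs CTRL, -0.622 for PIO+GM vs GM and -0.563 for the average. After the trend on GC content was removed from each library, the effect on Sox10 was -0.06 for PIO vs CTRL (adjusted p = 0.9), -0.18 for PIO+GM vs GM (0.67) and -0.12 for the average (0.58), and in a fit of the 12 libraries at 6 h alone, without that removal, the average was -0.55 (0.097).

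The other 7 genes varied over a wide range at 6 h. The fold between the highest and the lowest of the 12 libraries was 10.8 for Prx, 9.53 for Mag, 8.70 for Egr2, 7.96 for Mbp, 6.00 for Pmp22, 4.57 for Cnp and 2.67 for Mal. Mbp CPM was 258, 393 and 158 in CTRL, 94.4, 287 and 101 in PIO and 563, 230 and 70.7 in PIO+GM. PIO+GM replicates 1 and 3 were the highest and the lowest of all 12 libraries for Mbp, and they stood at 192 and 18.1 CPM for Prx. The averaged log2 fold changes ran from -0.79 ± 0.45 for Prx (adjusted p = 0.23) and -0.76 ± 0.48 for Mag (0.27) to -0.31 ± 0.42 for Pmp22 (0.64). Transcripts of Prx (57.7%), Mag (57.6%) and Cnp (54.8%) also lie above the median GC content of 49.8%. Over the alternative settings, removal of the GC trend among them, the averages were -0.86 to -0.49 for Prx, -0.83 to -0.47 for Mag and -0.66 to -0.38 for Cnp. Without PIO+GM 6 h replicate 1, 6 of the 8 genes were called lower in the average, namely Mag (-1.37), Prx (-1.37), Egr2 (-1.01), Cnp (-0.97), Mal (-0.51) and Sox10, so that this 1 library decided the count, and 15.1% of all genes were called lower in that fit. In every other fit without 1 library only Sox10 was called. Over the 24 such fits the average ran from -1.04 to -0.34 for Mbp, -0.93 to -0.02 for Pmp22 and -0.51 to -0.12 for Mal.

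**Figure D4:**
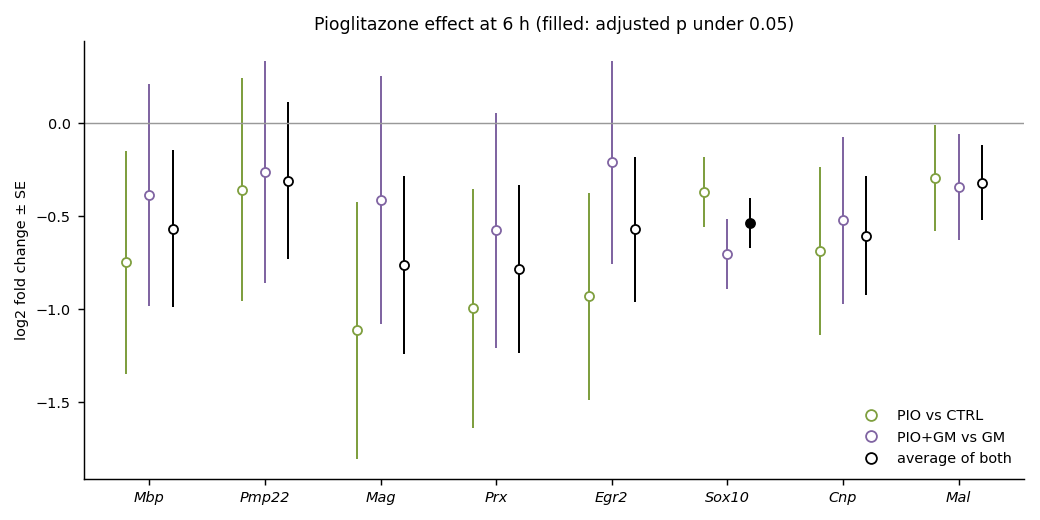
Log2 fold change ± SE of the 8 genes at 6 h for PIO vs CTRL (3 against 3 libraries), PIO+GM vs GM (3 against 3) and the average of both (6 against 6), with filled points for an adjusted p under 0.05. All 24 values lie below 0, and only the average for Sox10 (-0.54) is filled.

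The wider lists are set beside the 6.83% of all genes called lower in the averaged comparison at 6 h. Of 18 other myelin and node genes, 4 were lower by the test, Cadm4 (-0.78 ± 0.17, adjusted p = 0.0062), Gal3st1 (-1.23 ± 0.32, 0.017), Ncmap (-0.95 ± 0.31, 0.043) and Sh3tc2 (-0.73 ± 0.22, 0.031). Of 18 regulators, 7 were lower, among them the neuregulin receptors Erbb3 (-0.85 ± 0.16, 0.0036) and Erbb2 (-0.51 ± 0.14, 0.02) and Lgi4, a secreted signal for myelination (-1.35 ± 0.32, 0.01). Of 13 immature and repair genes, 5 were lower, among them Ngfr (-1.35 ± 0.39, 0.028) and Gap43 (-1.18 ± 0.16, 0.00037), and none in these 3 lists was higher. Of 18 neuron markers none was called at 6 h, 16 gave negative values and the median was -0.42. Of 10 hair cell markers 4 were lower (Pou4f3, Myo7a, Slc17a8 and Gfi1), of 5 oligodendrocyte markers 2 (Aspa and Sox8) and of 8 fibroblast markers 2 (Col3a1 and Pdgfra). The mean log2 CPM of the fibroblast markers at 6 h was 8.21 to 8.62 in CTRL and 7.54 to 8.06 in PIO. It was 8.16 to 8.55 in GM and 7.78 to 8.21 in PIO+GM. After removal of the GC trend that moved the Sox10 value, which called 4.63% of all genes lower, 0 of the 18 myelin and node genes, 5 of the 18 regulators, 3 of the 13 immature and repair genes 1 of the 10 hair cell markers, 1 of the 5 oligodendrocyte markers and 2 of the 8 fibroblast markers were lower by edgeR's quasi-likelihood test. With the replicate block added to that removal, 7, 9, 6 and 2 of the first 4 lists were lower, beside 8.51% of all genes. Without PIO+GM 6 h replicate 1 the counts in those 4 lists were 10, 8, 8 and 4, and 3 of the 18 neuron markers were lower, beside 15.1% of all genes. The part of these lists in the value of Sox10 was not tested.

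At 24 h no gene of the 8 was called for pioglitazone, with 0.153% of all genes called in PIO vs CTRL, 0.11% in PIO+GM vs GM and 2.79% in the average. By DESeq2 and at an unadjusted p under 0.05 the count was 0 in each of the 3. Mal was 46.4, 56.0 and 44.3 CPM in CTRL and 38.6, 41.3 and 35.9 CPM in PIO, which did not overlap, as 10.6% of all genes did with lower values in PIO (-0.34 ± 0.29, adjusted p = 0.76). Egr2 likewise did not overlap (-0.43 ± 0.58, 0.88). Gap43, a gene of axons as well as of repair Schwann cells, was lower with pioglitazone at 24 h as at 6 h (-1.27 ± 0.23 for PIO vs CTRL, 0.029), while no gene of the 8 shared that call. It is 1 of the 13 immature and repair genes tested and does not stand for that list.

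Gentamicin changed none of the 8 genes by the test at either time, when 0% of all genes were called at 6 h and 0.0123% at 24 h. The count was also 0 at an unadjusted p under 0.05 and by DESeq2. At 6 h, 7 of the 8 values were positive, with a median log2 fold change of 0.45, and the largest was that of Cnp (0.58 ± 0.45). At 24 h the median was 0.12. The standard errors, between 0.19 for Sox10 and 0.67 for Mag at 6 h, set the size of difference that 3 against 3 libraries could show.

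The libraries were also compared singly, to see how the 8 genes moved together within a group. The summed CPM of the 8 genes ran from 338 in PIO+GM 6 h replicate 3 to 1747 in GM 6 h replicate 2, and at 24 h from 352 in PIO+GM replicate 2 to 731 in PIO+GM replicate 1. At 6 h GM replicates 2 and 1, PIO+GM replicate 1 and CTRL replicate 2 stood between 1243 and 1747 CPM, and PIO replicates 1 and 3 and PIO+GM replicate 3 between 338 and 454 CPM. The library with the lowest sum was also the library with the lowest total. The supporting cell markers summed to 2731 CPM in PIO+GM 6 h replicate 1, their lowest value, and to 5287 CPM in replicate 3 of the same group.

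After each group mean was removed, log2 CPM of the 7 genes other than Sox10 rose and fell together over the 24 libraries, with Pearson correlations between 0.712 and 0.979 over the 21 pairs and a median of 0.872. These are descriptions over libraries that share their processing, and no p is given. The closest pair was Prx and Cnp (r = 0.979, Spearman's rho = 0.971, and r = 0.968 without the 2 libraries farthest from the median). Mag and Prx gave r = 0.959 (rho = 0.964, r = 0.973 without those 2). Cnp, which did not differ between the times, thus followed the sheath genes from library to library within a group.

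With group means removed, the correlations of Sox10 with the others were lower at 6 h than at 24 h. Its correlations with the other 7 genes lay between -0.15 and 0.27 over the 12 libraries at 6 h and between 0.71 and 0.91 at 24 h. With Mag it was 0.251 at 6 h (rho = 0.084), and -0.581 without the 2 farthest libraries, and 0.909 at 24 h (rho = 0.909), and 0.778 without them. With group means kept, its correlations with Mag were 0.459 at 6 h and 0.565 at 24 h and those with Mal 0.189 and 0.222, and the difference between the times was not tested.

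The marker lists moved with the 8 genes to different degrees. The mean of the neuron markers correlated with Mbp at r = 0.866 over the 12 libraries at 6 h (rho = 0.881, 0.881 without the 2 farthest) and at 0.477 at 24 h (rho = 0.413, 0.59). Supporting cell markers ran against Mal at 6 h (r = -0.915, rho = -0.965, -0.869 without the 2 farthest) and not at 24 h (r = -0.064). Fibroblast markers ran with Mal at 6 h (r = 0.863, rho = 0.86) and with Mbp at 0.505 (rho = 0.476). At 6 h, Mal had correlations of larger size with both lists than Mbp, Pmp22, Mag, Prx, Egr2 or Cnp, a difference that was not tested, and the part of these cells in its levels was not tested.

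**Figure D5:**
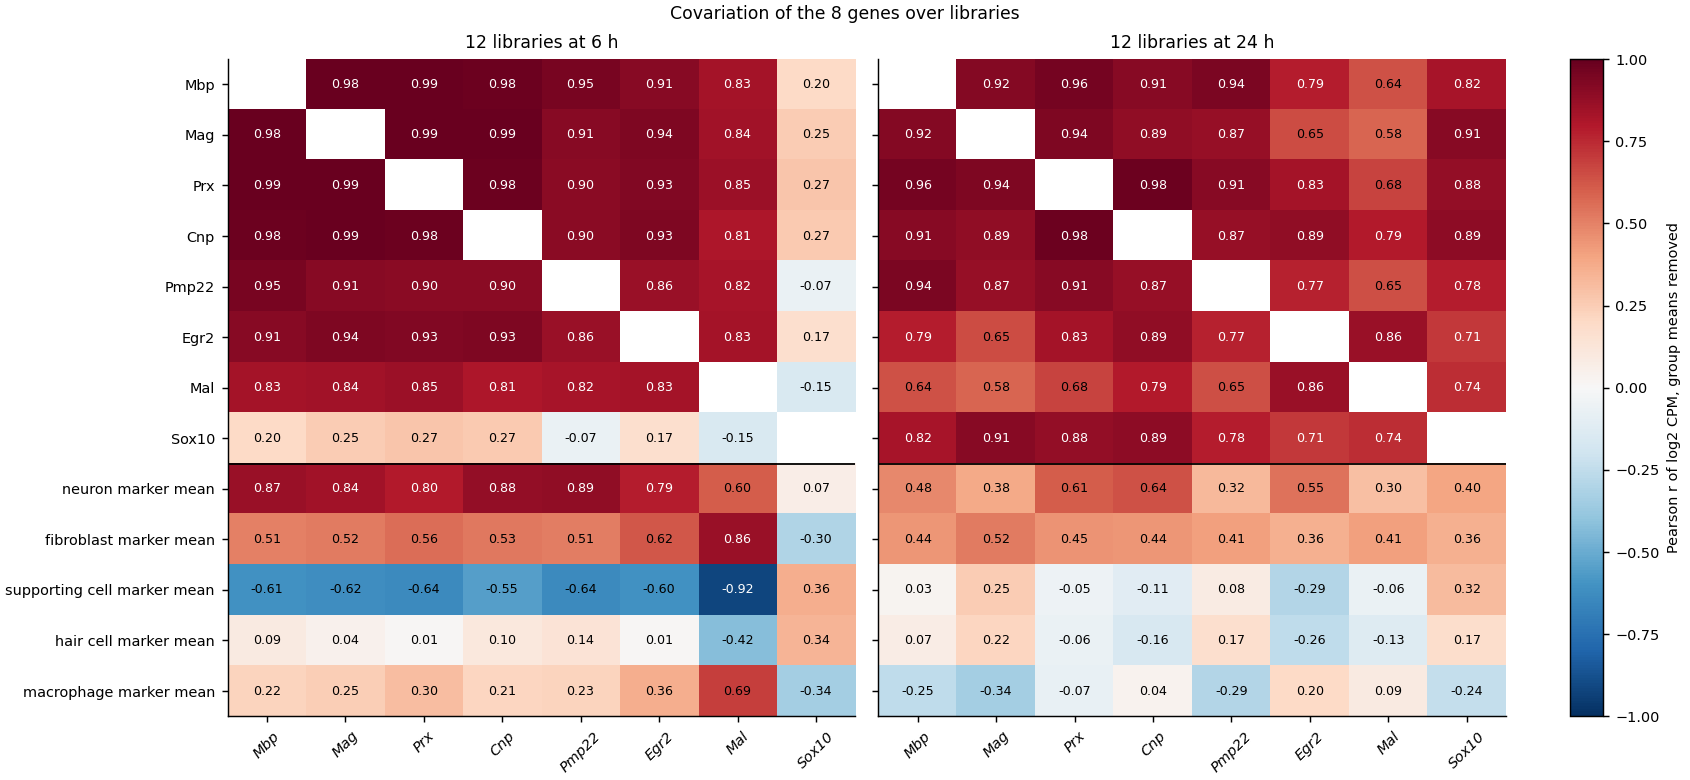
Pearson r of log2 CPM, with group means removed, between the 8 genes (rows above the line) and with the mean of 5 marker lists (rows below it), over the 12 libraries of each time. Sox10 has values from -0.15 to 0.27 with the other genes at 6 h and from 0.71 to 0.91 at 24 h, whereas the other genes correlate with each other at both times.

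Of all genes tested, those most like each of the 8 over the 24 libraries were taken as those with the 3 highest Pearson r. For Mbp they included Prx (0.974) and Thy1 (0.96), for Mag Cldn19 (0.968) and Prx (0.959), and for Prx Cnp (0.979) and Mbp (0.974). For Cnp they were Prx (0.979), Dusp15 (0.955) and Cldn19 (0.952), so that 4 of the 8 had their nearest genes largely among myelin genes. Pmp22 was nearest to Smco3 (0.945), Col28a1 (0.936) and Usp6nl (0.936), and Egr2 to Stard13 (0.947), Oaf (0.939) and Otud7b (0.899). Mal was nearest to Nes (0.894), Ppfibp2 (0.877) and Socs5 (0.873), and Sox10 to Srrm3 (0.931), Rgma (0.926) and Pcbp4 (0.913), with no myelin gene in either set of 3.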

How the data were processed

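Per the study's methods, the authors isolated total RNA from the OCs, made stranded total RNA libraries, mapped reads with STAR (RNA-STAR), and counted with QuasR the reads starting in any RefSeq exon of a gene. The submitters' processing notes name the build mm10. The deposited values are raw counts per Entrez gene, neither normalized nor filtered, beside the gene length that the authors' counting gave. Gene locations and promoter windows come from RefSeq on GRCm38.p6. Here counts were fitted in R 4.3.3 with edgeR 4.0.16 (TMM, filterByExpr, quasi-likelihood F-test, 1 mean per group, all 24 libraries), with Benjamini-Hochberg adjustment over 16317 genes and a threshold of 0.05. Standard errors come from the F statistic. log2 CPM used a prior count of 2, and RPKM used the deposited length. DESeq2 1.42.0 was an alternative. The 13 comparisons were, at each time, gentamicin alone and pioglitazone alone against controls, pioglitazone on top of gentamicin, and the averaged pioglitazone effect, and 24 h against 6 h in each treatment and on average, with 5 interactions. At these totals 3 counts are 0.193 to 0.416 CPM, for counting error only. The common biological coefficient of variation was 0.225. The fits were tested on simulated counts.

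The 8 genes and all lists were chosen with earlier results of these data known. From each list the genes named are those called in a comparison or else the 2 of highest RPKM, and some called genes are given as counts only. Gjc3, Erbb3 and Ngfr, where not called, and the gene pairs of the ratios were named after their values were seen. For each of the 8 genes, the 3 genes of highest r over the 24 libraries are named where reported, and Tirap because of its alias. GC content was found for 94.3% of tested genes. A few results on other genes are not reported here. The counts in other lists after removal of the GC trend and without 1 library were added after the data were seen.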

Additional observations from a re-analysis of the deposited data

How the results depend on the processing

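The 6 genes that fell on average over treatments between 6 and 24 h were called under every alternative that tested them. With at least 10 counts required in every library Mag was not tested and the count was 5. Leaving out 1 library at a time gave 6 to 7 genes. Within treatments the same step gave 0 to 5 genes in CTRL, 0 to 6 in GM, 0 to 3 in PIO and 1 to 6 in PIO+GM, and for pioglitazone at 6 h it gave 0 to 2 in PIO+GM vs GM and 1 to 6 in the average. In CTRL the count of 3 became 5 with the likelihood ratio test, with DESeq2, with only the groups compared (which lost Mal) and with the GC trend removed. Fitting only the groups compared left 1 gene in PIO (Mag) and 1 in PIO+GM (Pmp22). Sox10 in PIO+GM vs GM at 6 h was called, as 1 gene, by the likelihood ratio test and by DESeq2, but its value was -0.18 after removal of the GC trend and -0.16 with the replicate block as well. The call of Sox10 in the averaged pioglitazone effect was lost, leaving 0 genes, in the fit of 12 libraries and after removal of the GC trend, without and with the replicate block. Small values turned sign: Cnp on average over treatments (0.01 without a filter, -0.15 to 0.17 without 1 library), Sox10 in the same comparison (-0.12 after removal of the GC trend, with and without the block), and, when 1 library was left out, Mal (-0.53 to 0.11) and Pmp22 (-1.59 to 0.23) in PIO vs CTRL at 6 h and Egr2 (-1.09 to 0.25), Mag (-1.62 to 0.04), Mbp (-1.33 to 0.07) and Pmp22 (-0.76 to 0.17) in PIO+GM vs GM at 6 h. Where a call changed, the cause was not tested beyond what the setting removes.

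Libraries with the same replicate number did not always deviate together: the mean correlation was 0.113 over 18 pairs at 6 h, 9 of them over 0.1, and 0.38 at 24 h, 15 of 18 over 0.1, against -0.055 and -0.182 for unlike numbers, and 8 of 12 libraries at each time correlated best with their own number. Libraries of the same number were thus more alike on average than those of unlike numbers, more so at 24 h. What the numbers mark is not given, so the main fits held no replicate block, and their p-values leave any such likeness out. A replicate block gave 1 gene in PIO+GM vs GM at 6 h (Sox10, -0.73, adjusted p = 0.016), 5 genes in CTRL between the times, 6 with the GC trend removed as well, and 0.01 for Cnp on average. Depth limited Mag most, with 6 to 78 counts in the 24 h libraries. A prior count of 0.5 and the RPKM scale kept the direction of all 8 mean differences between the times. The median correlation of Sox10 with the other genes was 0.343, and 0.098 with group means kept and 0.181 without the library farthest in the mean of the 8 genes.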
